A study of Mus musculus with 150 samples.

Results

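Retina of adult mice of the inbred strain B6 was compared with the other neural tissues of that strain. The retina was represented by 4 arrays, chosen by the tissue named in their labels, of 150 arrays in the whole series, and the comparison used the 43 other B6 neural arrays of 21 tissues. The series measured total RNA of adult wild-type inbred mice on a single Affymetrix platform, across 24 neural tissues and 10 body tissues. The 21 comparison tissues were hippocampus, hippocampus CA1, hippocampus CA3, dentate gyrus, hypothalamus, BNST, PAG, pituitary, motor cortex, cortex, pons, medulla, cerebellum, midbrain-thalamus, striatum, amygdala, inferior colliculi, superior colliculi, olfactory bulbs, spinal cord and choroid plexus. The tissue hippocampus CA1 had 3 arrays and the other 20 had 2 each. Every array was B6, also written BL6 in the labels, and wild type with no treatment stated. The labels gave neither age beyond adult nor sex. Each retina title carried a number of its own, 2 of them in the form 2M and 2 in the form 2, and the meaning of the M is not stated. Whether a number stands for an animal or a pool is not stated either, so the p-values measure the spread between these arrays, and titles of several other tissues carried the same numbers as each other. The number of 1 retina array also stood in the title of a motor cortex array.

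The retina is the part of the central nervous system that turns light into nerve signals. Rods serve dim light and cones serve bright light and colour, and both hold their visual pigment in stacked membranes of an outer segment. Light activates the pigment, which activates the G protein transducin, which activates a phosphodiesterase that hydrolyses cyclic GMP, and cyclic GMP-gated channels then close. Photoreceptors pass the signal through ribbon synapses to bipolar and horizontal cells, amacrine cells shape it further, and ganglion cells send it to the brain. Müller glia span the layers, the retina of the mouse holds no myelin, and rods make up most of its cells.

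The labelled tissue was checked with Gnat1, Sag and Tulp1, which photoreceptors express and brain does not. Intensities are listed in the order of retina replicates 1 to 4, of which replicates 1 and 2 carry the titles with M. Gnat1, the alpha subunit of rod transducin, stood at 9165, 8706, 12705 and 12663 in retina and between -1.88 and 13.6 on the 43 other arrays. Sag, the arrestin of rods, which ends the light response, stood at 6018, 6349, 8019 and 6708 against 6.28 to 31.1 with a median of 14.3. Tulp1, needed for protein transport to the outer segment, stood at 4657, 4175, 6009.9 and 5569 against -25.7 to 32.1 with a median of 16.2. For each of the 3 markers the lowest retina array lay far above the highest array of any other tissue. The 3 had the largest differences of all genes tested and stand on gene lists chosen with earlier results of these data known. The values thus describe the retina arrays and are no independent check of the label. They do not check the labels of the other tissues.

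The retina arrays resembled each other as closely as arrays of other tissues did. The 6 pairs of retina arrays had a Pearson correlation of 0.957 to 0.971 across the genes tested, against 0.953 to 0.988 for 23 pairs within other tissues and 0.531 to 0.784 between retina and other arrays. The median intensity was 62.7 to 67.6 in retina and 42.2 to 63.7 elsewhere, and 15.7% to 16.1% of probe sets did not exceed the floor of 10.4 against 17.8% to 24.1%. The Gapdh 3' to 5' ratio, a measure of RNA integrity, was 0.846 to 0.978 against 0.773 to 1.41. Between retina arrays with and without M in the title, 32 genes, 0.502%, passed the test described below, 23 of them lower with M, and 17 of the 32 also passed in the comparison of retina with other tissues. Without adjustment, 804 genes had p below 0.05 in that split. The summed intensity of the 13 rod genes was 32911 and 32708 with M and 43403 and 41075 without, so the forms did not overlap. Retina replicate 2 stood apart in crystallin genes, as described with the lens genes.

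Retina differed from the mean of the other tissues in a large share of the genes measured above background. Differences are log2 of retina minus the unweighted mean of the 21 tissue means, ± SE, and a gene was called when its limma adjusted p was below 0.05 and its difference was at least 1, a change of at least 2-fold. Of 6374 genes tested, 827 were called higher in retina, or 13.0%, and 787 were called lower, or 12.3%, together 25.3%. The median difference over all genes tested was 0.03. With quantile normalization the calls were 707 higher and 975 lower. In tissue RNA, fewer cells of a type and less RNA per cell cannot be told apart, which holds for every value below. When the 21 tissue means were the unit and the single retina mean was set against their spread, 665 genes passed, 430 higher (6.75%) and 235 lower (3.69%), and each of them had the same direction in the fit on arrays. Without pituitary and choroid plexus, a comparison added after the data were seen, the same unit gave 672 higher (10.5%) and 570 lower (8.94%).

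**Figure D1:**
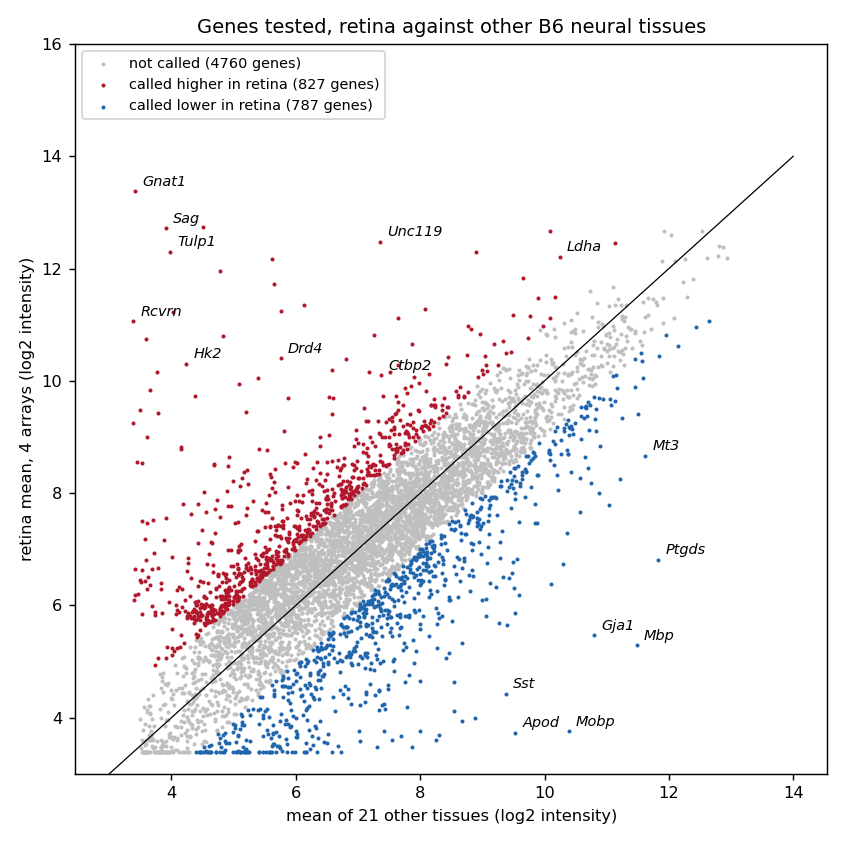
Retina mean over 4 arrays (vertical axis, log2 intensity) against the mean of 21 other B6 neural tissues (horizontal axis, log2 intensity), a point for each of 6374 genes tested. Red points are the 827 genes called higher in retina and blue points the 787 called lower, the line marks equal levels, and photoreceptor genes such as Gnat1 and Sag lie far above it while myelin and astrocyte genes such as Mobp and Gja1 lie far below it.

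Against a single tissue, retina differed least from cerebellum, with 799 genes higher and 729 lower, 24.0% in all, and next from BNST, with 1626 called (25.5%), and olfactory bulbs, with 1710 (26.8%). It differed most from choroid plexus, the tissue that secretes cerebrospinal fluid, with 1935 higher and 1396 lower, 52.3% in all, and then from midbrain-thalamus, with 2236 called (35.1%). Retina correlated best with cerebellum, at a mean of 0.766 over array pairs, and least with choroid plexus, at 0.558. A stricter count kept the genes called in the same direction against each of the 21 tissues. It held 132 genes higher than in every other tissue, 2.07% of those tested, and 93 lower, 1.46%. Of the 132, 53 had passed the filter on dim genes only through retina, so their direction was fixed by it. As a description, the 4 retina arrays lay above all 43 others for 618 genes, 9.70%, and below all of them for 303 genes, 4.75%. Of the 6374 genes, 181 had passed the filter on dim genes only through retina and so had to differ, and 151 of these were among the 827 called higher.

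Most of the genes with the highest differences were photoreceptor genes. Of the 20 with the largest difference, 15 were on the lists of rod, cone or outer segment genes chosen for this tissue. These were Gnat1, Sag, Tulp1, Pde6g, Rcvrn, Prph2, Guca1a, Rom1, Pde6b, Gnb3, Abca4, Gnat2, Pde6a, Cnga1 and Opn1sw, with differences from 5.35 to 9.96. The other 5 were Reep6, Hk2, Pla2r1, Crx and Neurod4. The rod, cone and outer segment lists held 27 of the 6374 genes tested. Most of their rod and cone genes had passed the filter on dim genes only through retina. In the opposite direction, 13 of the 20 genes with the largest difference were on a list, 6 of them on the myelin list and 4 on the astrocyte list. All lists were chosen with earlier results of these data known, so these counts are descriptions.

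The rod cascade was measured from transducin to the channel, and each of its 13 genes on the array was called higher in retina, against 13.0% of all genes tested. The list median difference was 5.97, and 10 of the 13 were higher than in each of the 21 tissues. Only Gnb1, Gnb5 and Pdc passed the filter on dim genes without retina, so the other 10 had to differ and the count is a description. All 13 were also called with tissue means as the unit.

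Gnat1 had a difference of 9.96 ± 0.10 (limma adjusted p = 1.64e-37), the largest of all genes, with 8706 on the lowest retina array and 13.6 on the highest other array, in pituitary. Gnb1, the beta subunit of rod transducin, is used by G proteins throughout the brain. It stood at 1303, 1311, 2275 and 2032 in retina and at 341 to 1158 with a median of 679.7 elsewhere, a difference of 1.37 ± 0.12 (adjusted p = 3.54e-12). The groups did not overlap, yet its other probe sets gave 3.79, which was called, and -0.08, which was not. Gnb1 was lower on the retina arrays with M by 0.72 on the log2 scale, with a limma adjusted p of 0.0547 for that split, and Gnat1 by 0.51 (adjusted p = 0.169).

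The rod phosphodiesterase has 2 catalytic subunits and an inhibitory subunit. The catalytic Pde6a stood at 1711, 1685, 1869 and 1914 in retina against 0.18 to 68.1 with a median of 29.9, a difference of 5.97 ± 0.18 (adjusted p = 4.72e-24). The catalytic Pde6b stood at 1108, 1098, 1262 and 1134 against 1.4 to 27.9 with a median of 11.8, a difference of 6.40 ± 0.22 (adjusted p = 1.37e-22). Neither subunit came near the retina level in any other tissue. The inhibitory Pde6g stood at 6009, 5865, 7987 and 7700.4 against 12.9 to 39.5 with a median of 22.8, a difference of 8.23 ± 0.14 (adjusted p = 4.84e-31). Cnga1, a subunit of the cyclic GMP-gated channel, stood at 551, 702, 641 and 540.1 in retina and at or below the floor on all 43 other arrays, so the retina was at least 58-fold higher. Its 4 arrays were close to each other, and its fitted difference of 5.86 depends on the floor.

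Genes that end the light response or restore cyclic GMP were as distinct. Sag had a difference of 8.81 ± 0.20 (adjusted p = 7.58e-28). Rcvrn (recoverin), a calcium sensor of photoreceptors, stood at 2010, 1793, 2457 and 2329 in retina and at or below the floor on every other array, hence at least 204-fold higher in retina. Recoverin and Cnga1 were the 2 genes called higher for which every other neural array was at the floor. Guca1a, which activates guanylate cyclase when calcium falls, stood at 3588, 3694, 4416 and 4282 against 3.27 to 45.4 with a median of 28.7, a difference of 7.18 ± 0.21 (adjusted p = 7.53e-25). Its target Gucy2e, a guanylate cyclase of photoreceptors, was dimmer, at 160.5, 143, 132 and 151 against -12.6 to 31.2 with a median of 6.78, a difference of 3.61 ± 0.14 (adjusted p = 3.46e-21). For each of these genes no other array reached the lowest retina array.

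Rgs9 and Gnb5 form the complex that switches transducin off, and striatum is the other tissue known to use Rgs9. Rgs9 stood at 142, 231, 187 and 161 in retina against -0.74 to 45.5 with a median of 9.33, the highest of these in striatum, a difference of 3.87 ± 0.15 (adjusted p = 2.03e-21). Gnb5 was present everywhere, at 174 to 737 with a median of 282 on the other arrays, and stood at 987, 1031, 1332 and 1131 in retina, a difference of 1.98 ± 0.07 (adjusted p = 4.53e-22). Both had their highest other array in striatum and neither overlapped with it. Pdc (phosducin), which binds transducin beta-gamma, varied widely, at 159, 101, 122 and 328 in retina against 8.06 to 103 with a median of 44.4. Its difference of 1.92 ± 0.34 passed (adjusted p = 7.88e-06), although retina replicate 2 lay below the highest other array, of hippocampus. Another probe set of Pdc was far brighter in retina, at 5619 to 8027 against 9.07 to 67.4 elsewhere, and differed by 7.90.

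**Figure D2:**
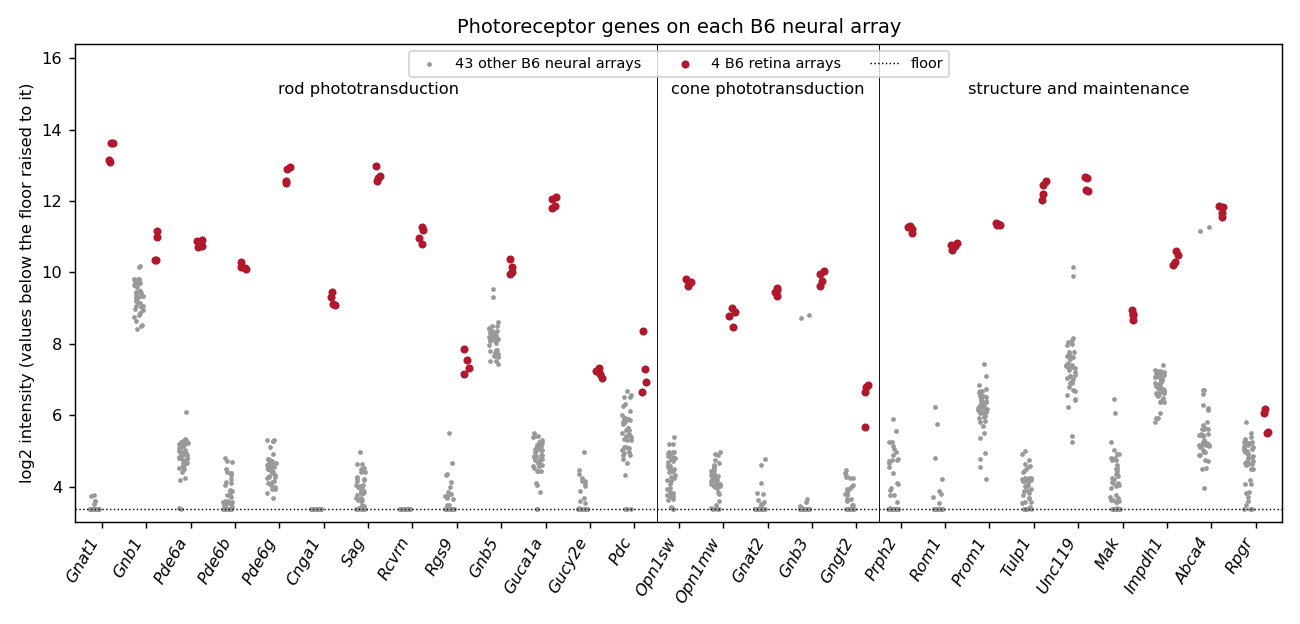
Intensity (vertical axis, log2, values below the floor raised to it) of the 27 rod, cone and outer segment genes on each of the 47 B6 neural arrays. Red points are the 4 retina arrays, grey points the 43 others and the dotted line the floor of 3.38, and the groups overlap only for Pdc and Rpgr.

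Cones are a small share of mouse photoreceptors, and their genes were also called, against 13.0% of all genes called higher. Each of the 5 tested was higher than in every other tissue, against 2.07% of all genes, with a list median of 5.35. The cone pigment Opn1sw, sensitive to short wavelengths, stood at 794, 848, 841 and 907 in retina against 9.01 to 41.7 with a median of 21.7, a difference of 5.35 ± 0.22 (adjusted p = 2.08e-20). The pigment for middle wavelengths, Opn1mw, stood at 436, 355, 514 and 477 against 5.7 to 31.2 with a median of 18.1, a difference of 4.64 ± 0.20 (adjusted p = 6.10e-20). Both pigments were high on all 4 arrays and near background elsewhere. The cone transducin subunit Gnat2 stood at 703, 647, 732 and 764 against -4.53 to 27.4 with a median of 6.58, a difference of 5.97 ± 0.10 (adjusted p = 1.68e-31). The beta subunit Gnb3 stood at 780.4, 986, 1049.8 and 864, and its median elsewhere was 3.57 with a single exception, pituitary, which reached 448. Its difference was 6.18 ± 0.09 (adjusted p = 3.44e-33). The gamma subunit Gngt2 was the dimmest, at 101, 51.1, 116 and 111 against -5.16 to 22.1 with a median of 9.44, a difference of 2.87 ± 0.18 (adjusted p = 1.03e-15), with replicate 2 the lowest. The channel subunit Cnga3 was too dim to be tested in any tissue, at 0.56 to 22.0 in retina. Only Gnb3 had passed the filter without retina, so the others tested had to differ and the count is a description.

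Outer segment structure and photoreceptor maintenance were represented by 9 genes, all called higher, with a list median of 5.22. The share called higher among all genes tested was 13.0%. Of the 9, 6 had passed the filter on dim genes without retina. Prph2 and Rom1 are the pair of tetraspanins at the rims of the discs. Prph2 stood at 2360.2, 2196, 2512 and 2466 in retina against -6.42 to 59 with a median of 11.8, a difference of 7.19 ± 0.20 (adjusted p = 2.42e-25), and Rom1 at 1578, 1708, 1830 and 1759 against -8.46 to 75.7 with a median of 3.45, a difference of 7.15 ± 0.10 (adjusted p = 2.00e-33). Prom1 (prominin), found where new discs form, stood at 2604, 2552, 2681 and 2583 against 18.5 to 172 with a median of 74.3, a difference of 5.22 ± 0.13 (adjusted p = 4.84e-27). In these disc genes the 4 retina arrays were within a narrow range and well clear of the others. Tulp1 differed by 8.32 ± 0.22 (adjusted p = 6.26e-26). Unc119, a carrier of transducin, was also expressed outside retina, at 38.2 to 1139.9 with a median of 163, and stood at 4970.1, 5065, 6528 and 6423 in retina, a difference of 5.13 ± 0.10 (adjusted p = 2.66e-30).

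Abca4, the transporter that clears retinal from disc membranes, had a second tissue. It stood at 3218, 3034, 3744 and 3633 in retina and at a median of 42.5 elsewhere, but choroid plexus reached 2466. The difference from the mean of tissues was 6.08 ± 0.16 (adjusted p = 2.47e-26), and Abca4 was not counted among the genes higher than each tissue. Impdh1, an enzyme of guanine nucleotide synthesis, stood at 1193, 1248, 1427 and 1541 against 55.9 to 169 with a median of 113, a difference of 3.59 ± 0.09 (adjusted p = 1.98e-26). Mak, a kinase of the cilium, stood at 409, 449.6, 489 and 455 against 2.5 to 88.2 with a median of 17, a difference of 4.66 ± 0.25 (adjusted p = 2.72e-17). The retina lay above every other array for these 3 genes. Rpgr, at the connecting cilium, was the smallest difference among photoreceptor genes, 1.16 ± 0.15 (adjusted p = 4.80e-08), its arrays at 66.6, 72.8, 46 and 45.2 overlapped with others up to 56.2, and without the arrays titled with M the value was 0.85, under the size threshold, as was 0.82 with quantile normalization. All but Rpgr passed with tissue means as the unit.

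Because the rod, cone and outer segment genes were high together, the sequence before their transcription starts was read from RefSeq (GRCm38.p6). The homeodomain factor Crx is known to bind TAATCC, or GGATTA read on the other strand. Of the 27 genes, 21 had a promoter in the table, with 27 start windows, and 9 windows held either form within 250 bases before the start, or 33.3%. The share was 17.2% of 134 windows of the genes higher than each tissue, 8.41% of 820 windows of the 827 genes called higher, 3.07% of 848 windows of the 787 called lower, 5.01% of 6670 windows of all genes tested and 6.25% of all 32851 windows in the table. All 27 genes are among the 827, and most of them among the genes higher than each tissue, so their windows are counted again there. These shares are descriptions of sequence, and a match is not a measured binding site. The 150 bases before the start are shown for 5 photoreceptor genes with the motif close to the start and for Crx, 5' to 3' on the gene's strand, with the motif in capitals.
Sag, chr1:87803530-87803679, plus strand: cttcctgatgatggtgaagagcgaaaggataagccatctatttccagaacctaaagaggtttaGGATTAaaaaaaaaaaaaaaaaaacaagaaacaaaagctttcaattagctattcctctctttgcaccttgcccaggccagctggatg
Guca1a, chr17:47400607-47400756, minus strand: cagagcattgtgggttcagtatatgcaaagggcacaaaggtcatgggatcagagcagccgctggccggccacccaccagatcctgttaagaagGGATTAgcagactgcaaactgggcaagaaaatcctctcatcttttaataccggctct
Gucy2e, chr11:69237023-69237172, minus strand: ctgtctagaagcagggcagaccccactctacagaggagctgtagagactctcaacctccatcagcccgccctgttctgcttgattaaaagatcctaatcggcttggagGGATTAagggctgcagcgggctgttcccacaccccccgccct
Gnat2, chr3:108092916-108093065, plus strand: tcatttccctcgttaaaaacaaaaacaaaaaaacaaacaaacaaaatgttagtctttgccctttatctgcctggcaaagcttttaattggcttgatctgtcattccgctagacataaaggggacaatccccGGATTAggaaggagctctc
Abca4, chr3:122044310-122044459, plus strand: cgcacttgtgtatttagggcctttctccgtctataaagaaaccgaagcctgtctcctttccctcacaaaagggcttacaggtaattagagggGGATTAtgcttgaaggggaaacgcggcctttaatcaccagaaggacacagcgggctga
Crx, chr7:15879956-15880105, minus strand: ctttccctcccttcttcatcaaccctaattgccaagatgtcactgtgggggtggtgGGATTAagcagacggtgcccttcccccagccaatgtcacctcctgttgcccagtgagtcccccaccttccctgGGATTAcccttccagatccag

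All 6 of these windows hold the form GGATTA on the gene's strand. Counted in bases before the start, the motif begins at 87 in Sag, 57 in Guca1a, 42 in Gucy2e, 19 in Gnat2 and 58 in Abca4. The window of Crx holds it at 94 and again at 21, and that of Gnb5, which is not shown, holds it at 6. The windows of Tulp1, Prph2, Rom1, Pde6b, Opn1sw and Opn1mw, whose genes were as high in retina, held neither form within the 250 bases.

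Transcription factors of the photoreceptor and retina were measured for 14 genes, of which 9 were called higher and none lower, with a median of 2.25. The shares over all genes tested were 13.0% higher and 12.3% lower. Crx, which drives photoreceptor genes, stood at 2014, 2303, 2836 and 2649 in retina against 24.9 to 109 with a median of 56.9, a difference of 5.49 ± 0.20 (adjusted p = 4.36e-22). Nrl, which directs cells to the rod fate, stood at 291, 254, 258 and 322 against 13.4 to 62.6 with a median of 34.8, a difference of 3.03 ± 0.18 (adjusted p = 4.55e-16). Both lay above all other arrays. Rax, the eye field factor, differed by 3.72 ± 0.22, and Pias3, a cofactor of Crx and Nrl in photoreceptors, by 2.53 ± 0.11. Crx, Nrl, Rax and Pias3 were higher than in each of the 21 tissues.

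Other eye factors were shared with particular brain regions. Pax6 stood at 1147, 1043, 1139 and 1237 in retina, and cerebellum came next with up to 672, the difference from the mean of tissues being 2.97 ± 0.14 (adjusted p = 5.43e-19). Neurod1, needed for photoreceptor survival, stood at 1060.4, 1302, 1030.4 and 887 in retina, and cerebellum reached 1486 where the median was 32.9, so the groups overlapped despite a difference of 4.66 ± 0.18 (adjusted p = 4.09e-21). Six3 stood at 227, 250.5, 213 and 183, with BNST next at up to 170.2 and a difference of 2.81 ± 0.19. Prox1, known in horizontal cells and in dentate gyrus, differed by 1.98 ± 0.18 and overlapped with dentate gyrus and hippocampus. Tbx2 differed by 1.24 ± 0.17, and its other probe sets by 2.35 and 2.76. Another probe set of Six3 did not exceed the floor on any array. Not called were Sox2 at -0.30, Hes1 at 0.41, Mitf at 0.24, Rxrg at -0.24, which reached 595 in striatum, and Thrb at 0.97. Thrb passed the size threshold, at 1.19, without retina replicate 3. Six6 was too dim to be tested. Of the 9 calls, 7 held with tissue means as the unit, Six3 and Prox1 not.

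The retinoid cycle restores the light-sensitive form of retinal, partly in Müller glia and partly in the pigment epithelium behind the retina. Of 9 genes tested, 4 were called higher and 2 lower, with a median of 0.80, so the list did not move as a whole. The shares over all genes tested were 13.0% higher and 12.3% lower. Rlbp1, the retinal-binding protein of Müller glia and pigment epithelium, stood at 1027, 970.3, 1006 and 949.7 in retina against 6.98 to 106 with a median of 38, a difference of 4.86 ± 0.14 (adjusted p = 5.33e-25). Rgr, a retinal-binding opsin of the same cells, stood at 38, 58, 64.1 and 83.5 against 6.37 to 28.6 with a median of 13.4, a difference of 2.03 ± 0.22 (adjusted p = 5.05e-10). These were higher than in each of the 21 tissues. Dhrs3, a retinal reductase, differed by 1.65 ± 0.11 (adjusted p = 5.55e-15) and Crabp1, which binds retinoic acid, by 1.39 ± 0.23 (adjusted p = 2.37e-06). Rdh5, a dehydrogenase of the pigment epithelium, was at background in retina, at -7.43, -7.75, 10.6 and 8.87, and reached 2894 in choroid plexus, a difference of -1.60 ± 0.23. Rbp4, the plasma carrier, was at -5.4, 10.9, -8.15 and 15.3 against a median of 46, a difference of -2.10 ± 0.20. Rdh11 at 0.80, Stra6 at 0.39 and Crabp2 at -0.78 were not called. With tissue means as the unit 3 remained higher, all but Crabp1, and none lower. With the floor at the 40th percentile Rgr was 0.84, Crabp1 0.64, Rdh5 -0.54 and Rbp4 -0.85, all under the size threshold.

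Müller glia share many genes with astrocytes, and of 10 tested 2 were called higher and 1 lower, shares near those of all genes tested. Besides Rlbp1, Dkk3, a secreted protein rich in Müller glia, stood at 1188, 1238, 1314 and 1249.7 in retina against 37 to 1074 with a median of 184, a difference of 2.65 ± 0.12 (adjusted p = 3.57e-19). Its closest tissue was motor cortex. Glul, which makes glutamine from glutamate, stood at 1313, 1335, 1214 and 1150.1 against 355 to 1350.4 with a median of 921, and its difference of 0.48 ± 0.08 was under the size threshold, while another probe set of Glul gave 1.11 and was called. Apoe, which astrocytes of the brain make in large amounts, stood at 1954, 2023, 2524 and 2156 against 1725 to 11729 with a median of 6688, a difference of -1.58 ± 0.07 (adjusted p = 4.62e-19). With the mean of its probe sets, the other of which reached no more than 22.8 on any array, Apoe was -0.47, under the size threshold. Clu at -0.85, Cd9 at -0.61, Car2 at 0.77, Car14 at 0.54, Vim at 0.89 and Crym at 0.90 were not called. Vim passed at 1.03 without retina replicate 3, Crym at 1.09 without retina replicate 2, and Car2 at 1.11 with quantile normalization. Rlbp1 remained higher and Apoe lower with tissue means as the unit.

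Bipolar cells carry the photoreceptor signal inward. Of 6 genes tested 4 were called higher and none lower, against 13.0% and 12.3% of all genes tested. Trpm1, the channel that opens in the ON bipolar cell at light, stood at 189, 179, 149 and 175 against 20.1 to 105 with a median of 57.2, a difference of 1.71 ± 0.19 (adjusted p = 1.88e-09). Rgs11, which speeds the G protein of that cascade, stood at 329, 287, 412 and 391 against 8.45 to 211 with a median of 124, a difference of 1.79 ± 0.12 (adjusted p = 3.15e-15). Neither overlapped with other tissues. Pcp2 stood at 521, 481, 781 and 760.5 in retina and at up to 2229.9 in cerebellum, whose Purkinje cells are its other known site, and differed by 2.11 ± 0.20. Prkca differed by 1.37 ± 0.16 and overlapped with olfactory bulbs and hippocampus. The G protein Gnao1, at 0.19, and Rgs7, at -0.08, are used across the brain and were not called, although another probe set of Gnao1 gave -1.06 and was called lower. Only Trpm1 passed with tissue means as the unit.

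Horizontal cell genes gave 1 call among 4 tested, Prox1, which was higher, against 13.0% of all genes called higher. Lhx1 at 0.70, Ndrg1 at 0.75 and Calb1 at -0.81 were not called, Calb1 being far higher in cerebellum, at up to 2364, than in retina, at 117 to 120. Ndrg1 passed as higher, at 1.06, with quantile normalization. Onecut1 and Gja10 were too dim to be tested, and Prox1 did not pass with tissue means as the unit.

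Amacrine cells are the inhibitory interneurons of the inner retina. Of their 11 genes 5 were called higher and none lower, against 13.0% and 12.3% of all genes tested. The AP-2 factors, which mark amacrine cells, were called for all 3 members tested. Tfap2b stood at 312, 270.4, 353 and 311 against 9.02 to 175 with a median of 32.1, a difference of 3.14 ± 0.19 (adjusted p = 3.61e-16), and its highest other array was of superior colliculi. Tfap2a stood at 186, 213, 162 and 231 against 13.6 to 83.9 with a median of 39.7, a difference of 2.42 ± 0.26 (adjusted p = 8.03e-10), and was higher than in each of the 21 tissues. Tfap2c, at 104, 78.3, 131 and 163, differed by 2.58 ± 0.28 (adjusted p = 9.65e-10) and overlapped with pituitary. Calb2 (calretinin) differed by 1.98 ± 0.11 and overlapped with olfactory bulbs and cerebellum. The genes of inhibitory transmission were not called. Gad1, which makes GABA, stood at 1423, 1513, 1434 and 1271 against -1.85 to 4344 with a median of 1445, a difference of 0.44 ± 0.26 (adjusted p = 0.118). Slc32a1, the vesicular transporter of GABA and glycine, differed by 0.19 ± 0.19 (adjusted p = 0.381) and the glycine transporter Slc6a9 by 0.86 ± 0.12, under the size threshold, and by 1.06 with quantile normalization, which passed. Th, of dopamine cells, differed by 0.31 ± 0.14, and Gad2 by -0.88 ± 0.15. Gad2 passed as lower, at -1.02, without choroid plexus and, at -1.0, without retina replicate 2, and at -1.30 with quantile normalization. Slc18a3 was at the floor in retina. The 5 calls held with tissue means as the unit, except that of Calb2.

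Ganglion cells are few in the retina and share most markers with projection neurons of the brain. Of 12 genes 4 were called higher and 2 lower. Over all genes tested, 13.0% were higher and 12.3% lower, so the share lower was near that of all genes. Isl1, a homeodomain factor of ganglion, bipolar and starburst amacrine cells, stood at 137, 178, 161 and 109 against -5.84 to 76.6 with a median of 7.73, a difference of 3.28 ± 0.14 (adjusted p = 1.97e-20), with no overlap. Rbpms, an RNA-binding protein that marks ganglion cells, differed by 2.17 ± 0.24, and pituitary reached 207 against 121, 96.5, 109.7 and 100.3 in retina. Sncg differed by 1.55 ± 0.12 and Ebf3 by 1.5 ± 0.10, both with higher arrays in spinal cord. Thy1, a surface protein of many projection neurons, stood at 614, 578, 709 and 653 in retina against 52.6 to 3225 with a median of 2409, a difference of -1.49 ± 0.10 (adjusted p = 2.90e-15). Gap43, of growing axons, stood at 132, 134, 134 and 74.1 against 15.1 to 1648 with a median of 751, a difference of -2.44 ± 0.16 (adjusted p = 1.57e-15). Thy1 overlapped only with choroid plexus, and Gap43 only with choroid plexus and pituitary. The neurofilaments Nefl at 0.42 and Nefh at -0.08 were not called, and Nefm, at -1.0, lay at the size threshold and passed without retina replicate 3, at -1.10, or without pituitary, at -1.19. Atoh7 was too dim to be tested. With tissue means as the unit only Isl1 remained, and without pituitary and choroid plexus Isl1, Rbpms, Thy1 and Gap43.

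Photoreceptor and bipolar terminals release transmitter at ribbons, and of 17 presynaptic genes 3 were called higher and 5 lower. Over all genes tested, 13.0% were called higher and 12.3% lower, so the share higher on this list was near that of all genes. Ctbp2 encodes RIBEYE, the main ribbon protein, along with a general corepressor, and the array does not separate them here. It stood at 1029, 1187, 1136 and 1032 in retina against 52.7 to 518 with a median of 169, a difference of 2.72 ± 0.09 (adjusted p = 1.18e-23), and was higher than in each of the 21 tissues. Stx3, the syntaxin of ribbon synapses, stood at 344, 377, 293 and 294 against 19.6 to 260 with a median of 45.6, a difference of 2.75 ± 0.13 (adjusted p = 3.44e-19). Unc13b, a priming factor, stood at 365, 405, 347 and 326 against -1.68 to 84.6 with a median of 34.7, a difference of 3.59 ± 0.12 (adjusted p = 7.30e-23). The groups were apart for all 3, which also passed with tissue means as the unit.

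The syntaxin of conventional synapses went the other way. Stx1a stood at 37.9, 24, 29.4 and 48.7 in retina against -0.06 to 1281 with a median of 142, a difference of -2.07 ± 0.16 (adjusted p = 2.30e-13). Syn2, a synapsin, stood at 106, 99.9, 85.3 and 107 against 22.8 to 1456 with a median of 562, a difference of -2.21 ± 0.12 (adjusted p = 2.72e-17). Syn2 in retina overlapped only with choroid plexus and pituitary, and Stx1a with these and cerebellum. Cplx1, a complexin, differed by -2.41 ± 0.12 (adjusted p = 1.87e-18) and the vesicle protein Vamp1 by -3.05 ± 0.30 (adjusted p = 5.88e-11). Syt2 differed by -1.10 ± 0.12, fell under the size threshold without retina replicate 3, at -0.98, or without medulla, at -0.96, or any of PAG, pons, cerebellum, inferior colliculi and spinal cord, and another probe set of Syt2 gave 0.41 and was not called, the mean being -0.34. None of these 5 passed with tissue means as the unit, and Cplx1 and Syn2 did so without pituitary and choroid plexus. The common release machinery was not called, with Snap25 at -0.19, Vamp2 at 0.12, Syt1 at 0.87, Syp at 0.26 and Pclo at -0.42. Without the retina arrays with no M, Syt1 passed at 1.15.

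Postsynaptic genes of forebrain neurons were mostly lower, 7 of 10, with 1 higher and a median of -1.36 against 0.03 for all genes tested. The shares over all genes were 12.3% lower and 13.0% higher. Nrgn (neurogranin), a calmodulin-binding protein of spines, stood at 46.4, 11.6, 35 and 65.1 in retina against 7.95 to 3904 with a median of 419, a difference of -3.36 ± 0.23 (adjusted p = 1.43e-14). Camk2a, the alpha subunit of the calmodulin kinase, was at 6.37, 2.63, 14.6 and 0.49 against -32.6 to 1053 with a median of 76.1, a difference of -2.78 ± 0.22 (adjusted p = 2.74e-13), and Camk2b differed by -1.29 ± 0.24. Camk2a lay near background in retina, and Camk2b overlapped only with choroid plexus and pituitary. Kalrn, an exchange factor of spines, differed by -3.95 ± 0.12, while another probe set of Kalrn gave 0.30 and was not called. Ptk2b differed by -1.74 ± 0.11, Icam5 by -1.39 ± 0.13 and Ppp3ca by -1.33 ± 0.13. The scaffold Dlg4 (PSD-95), which in retina lies also in photoreceptor terminals, was the exception at 796, 718, 699 and 766 against 27 to 954 with a median of 386, a difference of 1.11 ± 0.17 (adjusted p = 3.72e-07), and was 0.94 without choroid plexus and 0.85 without pituitary as well, under the size threshold. The groups of Dlg4 overlapped. None of the 8 passed with tissue means as the unit. The summed intensity of the 10 forebrain postsynaptic genes was 1810 to 2004 in retina, above pons at 1528 and 1719, medulla at 1692 and 1730, spinal cord at 1587 and 1696, pituitary and choroid plexus, and below all other tissues, up to 14941 in hippocampus CA3.

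Among 11 ionotropic glutamate receptor genes 2 were called lower and none higher, with a median of 0.00, a share lower near the 12.3% of all genes tested. Gria1, of the AMPA type, stood at 116, 113, 126 and 129 against 9.45 to 1701 with a median of 589, a difference of -2.05 ± 0.16 (adjusted p = 4.71e-13), and Gria3 differed by -1.22 ± 0.13. Gria2 at -0.72 was not called, passed without choroid plexus at -1.04, and another probe set of it was called at -1.31. The NMDA type Grin2b at -0.78 and the kainate type Grik1 at 0.40 were not called. Neither call remained with tissue means as the unit.

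Over all genes tested 13.0% were called higher and 12.3% lower. Of 11 receptor genes for GABA and glycine tested, 2 were called higher, 4 lower and 5 not. The 5 were Gabra6 at -0.15, Gabrb2 at -0.67, Gabrg1 at -0.79, Gabrd at 0.08 and Glra1 at 0.67, of which Gabrg1 passed as lower, at -1.32, with quantile normalization. Gabrr1 and Gabrr2 encode subunits of the GABA receptors of bipolar cells. Gabrr1 stood at 186, 183, 176 and 177 in retina against -0.42 to 20.8 with a median of 7.94, a difference of 3.97 ± 0.15 (adjusted p = 8.83e-22). Gabrr2 stood at 198, 157, 196 and 209 against 3.32 to 32.6 with a median of 13.9, a difference of 3.65 ± 0.21 (adjusted p = 1.44e-16). Both were higher than in each of the 21 tissues, and both passed the filter on dim genes only through retina. Gabrb1, the beta subunit of common GABA receptors, stood at 91.8, 59.5, 45.5 and 90.9 against 27.5 to 1358 with a median of 561, a difference of -2.95 ± 0.10 (adjusted p = 1.05e-22). Glrb differed by -1.09 ± 0.11, -0.98 without the arrays with no M and -0.99 with quantile normalization, and Gabra2 by -1.22 ± 0.28. Gabra3 differed by -1.05 ± 0.18 and was -0.25 with the floor at the 40th percentile and -0.95 without retina replicate 3, under the size threshold. The 2 higher calls held with tissue means as the unit and the 4 lower calls did not.

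**Figure D3:**
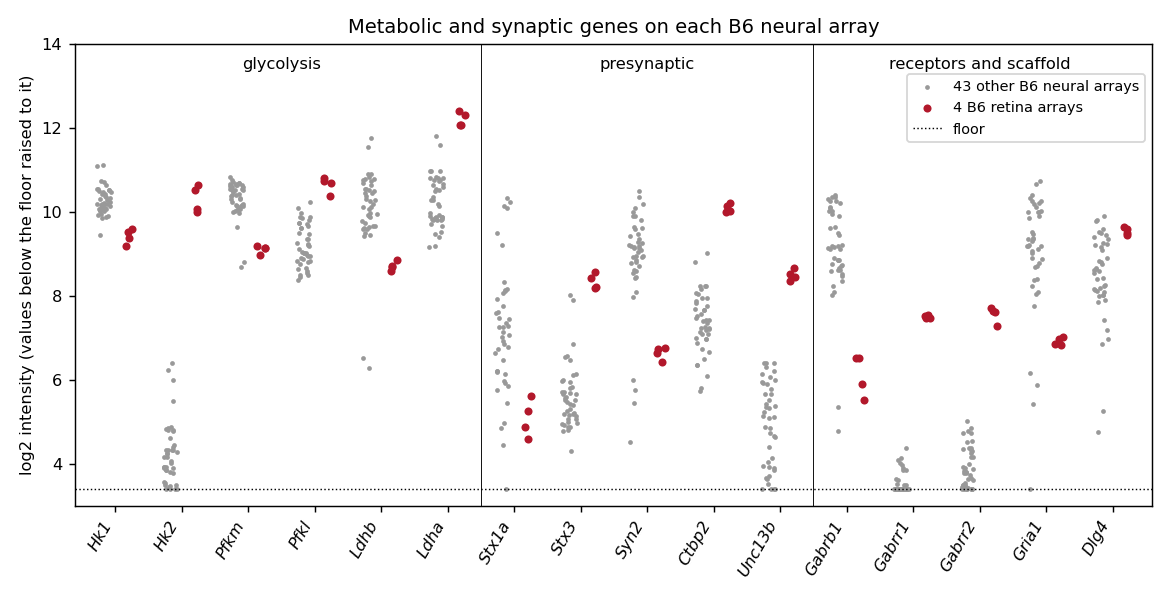
Intensity (vertical axis, log2, values below the floor raised to it) of 16 genes of glycolysis, the presynaptic terminal, and receptors and scaffold on each of the 47 B6 neural arrays. Red points are the 4 retina arrays and grey points the 43 others, and in retina Hk2, Pfkl, Ldha, Stx3, Ctbp2, Unc13b, Gabrr1 and Gabrr2 lie above all others.

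Photoreceptors turn much of their glucose into lactate even in oxygen. Of 22 genes of energy metabolism 4 were called higher and 3 lower, with a median of 0.21, shares close to the 13.0% and 12.3% of all genes tested. The 7 called were Hk2, Pfkl, Ldha and Atp1b2 as higher and Pfkm, Ldhb and Slc2a3 as lower, and 2 pairs of them, Pfkl with Pfkm and Ldha with Ldhb, are forms of the same enzyme. Hexokinase 2 (Hk2), which phosphorylates glucose, stood at 1067, 1467, 1594 and 1018 in retina against 3.66 to 84.3 with a median of 18. Its difference of 6.07 ± 0.18 (limma adjusted p = 2.74e-24) ranked among the 20 largest of all genes. Another probe set of Hk2 did not exceed the floor on any of the 47 arrays, and with it the mean of probe sets differed by 3.03. Hk1, the main hexokinase of brain, stood at 583, 729, 772 and 662 against 701 to 2214 with a median of 1175, a difference of -0.85 ± 0.10 that was under the size threshold. The retina was thus far above all other arrays for Hk2 and at their low end for Hk1.

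The forms of phosphofructokinase differed in direction. The liver form Pfkl stood at 1341, 1649, 1799.6 and 1715 against 329.7 to 1204 with a median of 556, a difference of 1.46 ± 0.08 (adjusted p = 1.29e-16). The muscle form Pfkm stood at 560.1, 504, 586 and 563 against 411 to 1807 with a median of 1353, a difference of -1.21 ± 0.06 (adjusted p = 1.21e-18), and the platelet form Pfkp, at 0.84, was not called. Those of lactate dehydrogenase did so as well. Ldha, the form that favours lactate, stood at 4311, 4308, 5408 and 5039 against 574 to 3613 with a median of 1174, a difference of 1.97 ± 0.07 (adjusted p = 3.37e-23). Ldhb stood at 387, 422, 461 and 415 against 77.9 to 3463 with a median of 1157, a difference of -1.36 ± 0.08 (adjusted p = 6.37e-16). Retina lay above all other arrays for Pfkl and Ldha, and only pituitary overlapped with it for Pfkm and Ldhb. Pfkm was -0.99 with quantile normalization, under the size threshold, and Pfkp then passed as higher, at 1.14. Ldhb was -0.55 with the mean of its probe sets, the other of which reached no more than 15.8 on any array.

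Among the other enzymes of glycolysis Pkm was 0.74, Pgam1 0.67, Aldoa 0.57, Pgk1 0.38, Aldoc -0.77 and Tpi1 0.28, none of them called, although all 4 retina arrays of Pgam1 lay above all others. With quantile normalization Pgam1 passed as higher, at 1.00, and the energy metabolism list then gave 6 higher and 2 lower calls. Atp1b2, the beta 2 subunit of the sodium pump, which photoreceptors use, stood at 1211, 1196, 974 and 1281 against 80.9 to 1261 with a median of 573, a difference of 1.10 ± 0.14 (adjusted p = 1.95e-08). It was 0.98 without pituitary, under the size threshold, as was 0.96 without pituitary and choroid plexus. The glucose transporter Slc2a3, of neurons, differed by -1.06 ± 0.10, and was -0.91 without retina replicate 1 and -0.98 without replicate 2, and another probe set of it gave -0.51. Slc2a1 was 0.54 and not called. With tissue means as the unit Hk2 and Ldha remained higher and none of the 3 lower calls remained. Without pituitary and choroid plexus the 3 lower calls did, and Pfkl as well.

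Neuropeptides gave 1 higher and 4 lower calls among 15, against 13.0% and 12.3% of all genes tested. Sst (somatostatin) stood at 20.0, 15.9, 41.8 and 16.1 in retina against -42.7 to 2971 with a median of 1137, a difference of -4.94 ± 0.16 (adjusted p = 1.45e-23). Cck (cholecystokinin) differed by -2.89 ± 0.13 and Penk (enkephalin) by -2.73 ± 0.14. Sst and Penk overlapped only with pituitary and choroid plexus, and Cck with these and pons. Tac2 (neurokinin B) was the exception, at 180, 221, 212 and 198 against 0.69 to 281 with a median of 46.8, a difference of 2.16 ± 0.16 (adjusted p = 5.61e-14), overlapping with hypothalamus, BNST and spinal cord. Avp was at the floor in retina, with a difference of -1.11 ± 0.16 that fell under the size threshold without hypothalamus, at -0.74, BNST, at -0.89, or midbrain-thalamus, at -0.97. None of the 5 passed with tissue means as the unit.

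Myelin genes were lower for all 9 tested, with a median of -4.44, against 12.3% of all genes called lower. Mbp, the basic protein of myelin, stood at 54.6, 32.5, 41.8 and 31.6 in retina against 68.3 to 9079 with a median of 4065, a difference of -6.19 ± 0.14 (adjusted p = 4.99e-28), while another probe set of Mbp gave -0.41 and was not called. Mobp stood at 17.2, 8.88, 10.3 and 17.7 against 6.39 to 7088 with a median of 2039, a difference of -6.63 ± 0.20 (adjusted p = 1.29e-24), the lowest of all genes. Retina lay below all other arrays for Mbp and overlapped only with pituitary and choroid plexus for Mobp. The tight junction protein Cldn11 stood at 15.1, 16.9, 7.5 and 20.5 against 57.7 to 1314 with a median of 471, a difference of -4.74 ± 0.16 (adjusted p = 6.02e-23). Mag differed by -4.44 ± 0.23, Mal by -3.91 ± 0.18, Mog by -3.29 ± 0.16, Ugt8a by -2.51 ± 0.23 and Klk6 by -1.92 ± 0.23. Gsn, an actin-severing protein of oligodendrocytes, stood at 13.7, 22.9, 19.2 and 4.15 against 172 to 2269 with a median of 401, a difference of -4.89 ± 0.13 (adjusted p = 1.27e-25). The summed intensity of the 10 myelin genes on the array was 172 to 206 in retina and 721 to 24811 elsewhere. Mbp, Cldn11 and Gsn passed with tissue means as the unit, and 7 of the 9 did when pituitary and choroid plexus were left out.

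Astrocytes in the retina are confined to the layer of ganglion cell axons. Of 11 genes 8 were called lower and none higher, against 12.3% and 13.0% of all genes tested. The list median was -2.57, against 0.03 for all genes. Gja1 (connexin 43), which couples astrocytes, stood at 35.2 to 69.3 in retina against 155 to 3066 with a median of 2142, a difference of -5.32 ± 0.10 (adjusted p = 1.74e-30), and was below every other array. Fabp7 stood at 3.96, 2.57, 18.8 and 2.23 against -8.17 to 3919 with a median of 408, a difference of -4.66 ± 0.13 (adjusted p = 2.01e-25), and Gjb6 (connexin 30) differed by -4.01 ± 0.13. Ntsr2 differed by -3.65 ± 0.13, Mt3 by -2.95 ± 0.07, Sparcl1 by -2.57 ± 0.10, S100b by -2.39 ± 0.12 and Gfap by -1.96 ± 0.14. The other 3 were not called. The water channel Aqp4 stood at 406, 418, 462 and 359 against 17.6 to 1815 with a median of 557, a difference of -0.22 ± 0.13 (adjusted p = 0.123), and Aldoc differed by -0.77 and Slc1a2 by -0.48. Gja1, Gjb6 and Mt3 were the 3 that passed with tissue means as the unit.

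Microglia were represented by 8 genes, 7 of them lower and none higher, against 12.3% and 13.0% of all genes tested. The list median was -2.11, against 0.03 for all genes, and Aif1 and Fcer1g were too dim to be tested. The complement genes C1qa, C1qb and C1qc differed by -3.03 ± 0.16, -3.36 ± 0.12 and -3.32 ± 0.16. C1qc stood at 32.5, 33.6, 20.1 and 71.9 against 109 to 729.6 with a median of 388 (adjusted p = 8.98e-19), and C1qa at 52.5, 46, 20.1 and 42.3 against 131 to 499 with a median of 337 (adjusted p = 2.18e-17). For both the retina lay below all other arrays. Another probe set of C1qb went the other way, at 1.37, and was called higher. Ctss, a lysosomal protease, stood at 78.3, 86.5, 79.8 and 47.4 against 226 to 589.9 with a median of 401, a difference of -2.46 ± 0.09 (adjusted p = 1.96e-21). Csf1r differed by -1.64 ± 0.08 and Laptm5 by -1.77 ± 0.15, each with another probe set that was not called, at 0.58 and -0.22. With the mean of probe sets C1qb was -1.0, Csf1r -0.53 and Laptm5 -0.99, and none was called. Tyrobp differed by -1.09 ± 0.12 and was -0.94 without retina replicate 3, under the size threshold. Cx3cr1 differed by -0.02 ± 0.09 and stood at 112, 92.2, 128 and 87.3 against 51.7 to 196 with a median of 98, within the range of the other arrays. All 7 lower calls passed with tissue means as the unit.

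Endothelial genes were divided. Of 10 tested 5 were called lower and 1 higher, against 12.3% and 13.0% of all genes tested. Eng (endoglin) stood at 44.9, 48.9, 62.2 and 39 in retina against 129 to 1181 with a median of 236, a difference of -2.41 ± 0.10 (adjusted p = 3.06e-20). The receptor Tie1 differed by -2.24 ± 0.13, Cdh5 by -2.02 ± 0.21, Vwf by -2.08 ± 0.19 and Cldn5 by -1.43 ± 0.14. Kdr, the main receptor of vascular endothelial growth factor, which retinal neurons also express, stood at 251, 317, 172 and 188 against 15.9 to 208 with a median of 43.4, a difference of 2.30 ± 0.21 (adjusted p = 1.39e-11). Of the other tissues only pituitary overlapped with retina. Pecam1 at 0.70, Flt1 at 0.41 and Tek at -0.46 were not called. With the floor at the 40th percentile Tie1 was -0.69, Cdh5 -0.92 and Vwf -0.95, under the size threshold. With tissue means as the unit Kdr remained higher and 3 of the 5 remained lower. The red blood cell gene Hba-a1 stood at 176, 178, 281 and 273 against 1045 to 8581 with a median of 1937, a difference of -3.24 ± 0.16 (adjusted p = 3.32e-18), below every other array, and Alas2 differed by -1.13 ± 0.36 and was -0.79 without the arrays with M and -0.33 with the floor at the 40th percentile. How blood left in the tissues bears on the vascular values was not tested.

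**Figure D4:**
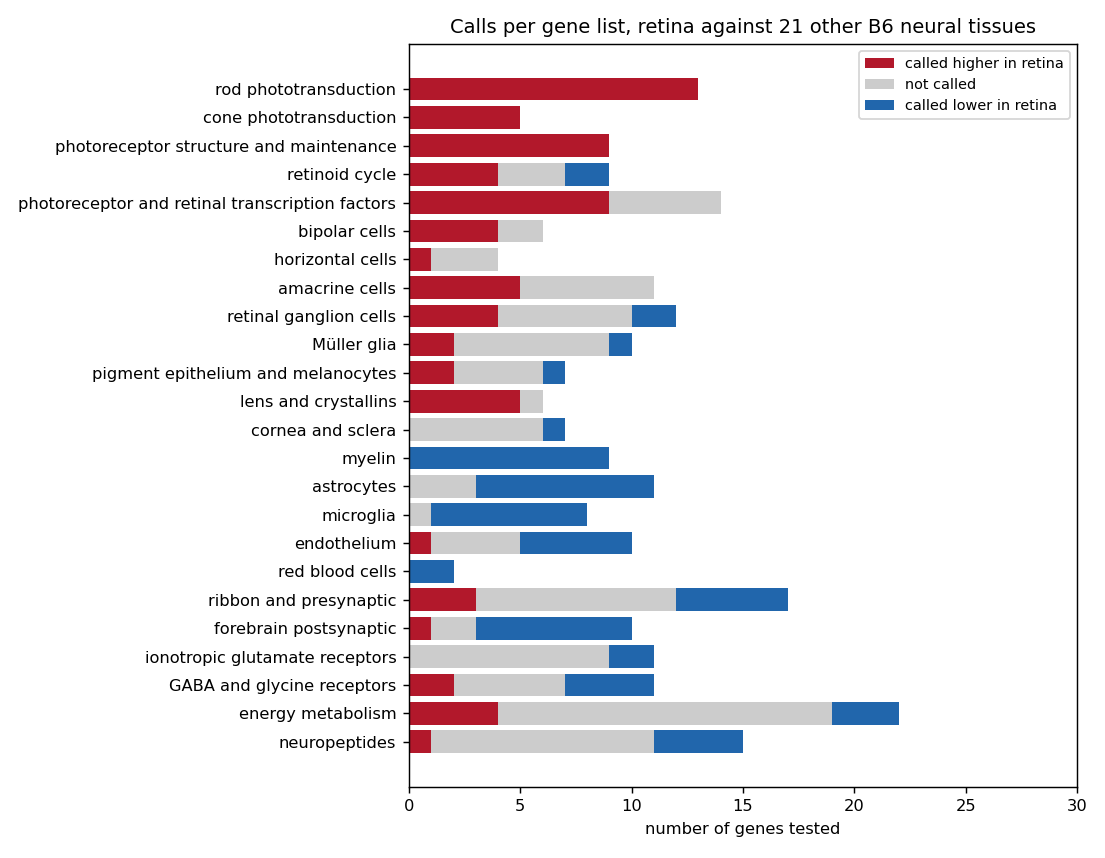
Number of genes tested (horizontal axis) on each of 24 gene lists, divided into those called higher in retina (red), not called (grey) and called lower (blue) against the other 21 tissues. All 27 rod, cone and outer segment genes are red, and all 9 myelin genes are blue.

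The dissection was examined for neighbouring tissues of the eye. Of 6 lens genes tested 5 were called higher, against 13.0% of all genes tested, and 6 more were too dim. Only Crybb2 and Cryab had passed the filter on dim genes without retina, so the other 4 had to differ and the count is a description. The summed intensity of the 12 lens genes on the array was 686 on retina replicate 1, 4036 on replicate 2, 941 on replicate 3 and 1100 on replicate 4, and 271 to 530 on the other arrays. Cryaa, the alpha A crystallin, stood at 83.2, 1698, 144 and 221 against 4.96 to 51.8 with a median of 26.3, a difference of 3.49 ± 0.38 (adjusted p = 6.43e-10). Cryba1 stood at 28.8, 823, 49.9 and 86.9 against -5.45 to 15.6 with a median of 2.16, a difference of 3.25 ± 0.35 (adjusted p = 6.82e-10), and Crygs at 108, 906, 142 and 162 against 15.8 to 46.1 with a median of 30.8, a difference of 2.86 ± 0.29 (adjusted p = 1.72e-10). Replicate 2 was the highest array by far for all 3 genes, and the other retina arrays also lay above all other tissues. Without replicate 2 the differences were 2.58, 2.24 and 2.18. Crybb2 differed by 1.11 ± 0.17, with another of its probe sets at 3.62, and was 0.98 without replicate 4, and Cryge by 1.07 ± 0.21, 0.95 without replicate 2, both then under the size threshold, as was Cryge at 0.76 with quantile normalization and at 0.86 without replicate 3. Cryab differed by 0.09 ± 0.16 and was not called. Whether the crystallin signal came from lens or from the retina itself was not tested. All of the 5 but Cryge passed with tissue means as the unit. The fibre cell genes Mip, Gja3 and Bfsp1 were too dim to be tested in any tissue.

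Pigment epithelium and melanocyte genes gave 2 higher and 1 lower call among 7, against 13.0% and 12.3% of all genes tested. Their summed intensity was 374 to 441 in retina, within the range of 141 to 21513 elsewhere, the top being choroid plexus with its Ttr. Dct, an enzyme of melanin synthesis, stood at 73.2, 71.7, 72.1 and 43.2 against 11.8 to 98.5 with a median of 26.5, a difference of 1.19 ± 0.29 (adjusted p = 4.17e-04), and was 0.87 with quantile normalization, while Rgr was given above. Pmel at 0.66 and Oca2 at 0.95 were not called, and Oca2 passed without choroid plexus at 1.15 and without retina replicate 3 at 1.18. Tyr and Tyrp1, the defining enzymes of pigment cells, were too dim to be tested, at 13.4 to 18.9 and 27.1 to 53.4 in retina. Rgr passed with tissue means as the unit and Dct did not.

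Cornea and sclera gave no higher call and 1 lower call among 7 genes, against 13.0% and 12.3% of all genes tested. Dcn (decorin), a proteoglycan of connective tissue and meninges, was lower, at 12.9, -1.5, 21 and 12.2 against 42 to 1416 with a median of 251, a difference of -4.22 ± 0.17 (adjusted p = 4.02e-21). The corneal keratin Krt12 stood at 89.4, 99, 80.4 and 64.4 against 36.1 to 385 with a median of 79.9 and differed by -0.15 ± 0.14. Krt5, at 16.6 to 30.5 in retina, Krt14, at -7.3 to 7.54, and Kera, at 7.23 to 25.6, were too dim to be tested. The collagens Col1a2 at 0.44, Col1a1 at 0.09 and Col3a1 at -0.10 were not called, although another probe set was called lower for Col1a1, at -2.53, and for Col1a2, at -1.93.

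**Figure D5:**
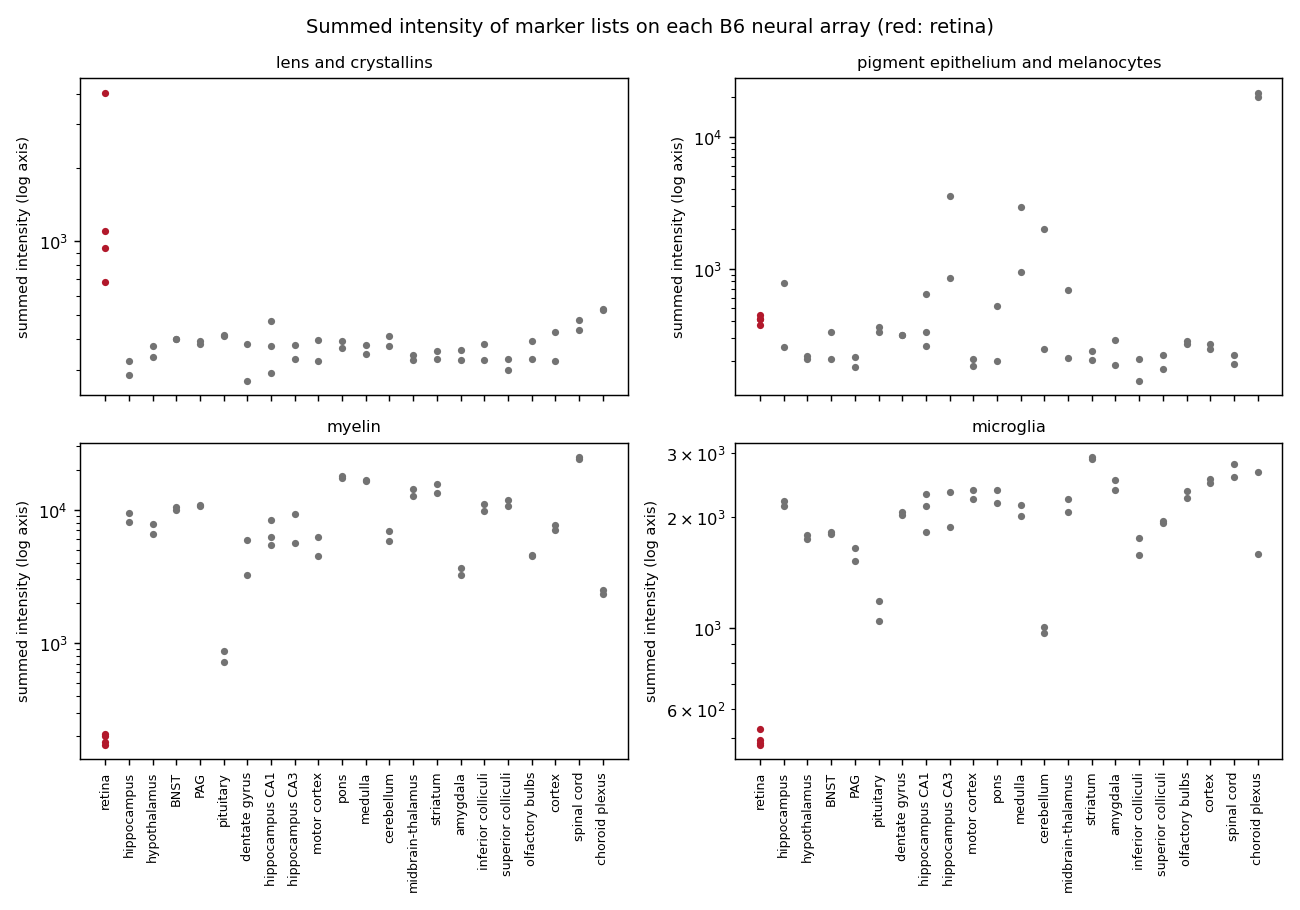
Summed intensity (vertical axes, logarithmic) of genes of lens, pigment cells, myelin and microglia on each B6 neural array, by tissue (horizontal axis), with retina in red. Retina replicate 2 reaches 4036 for lens genes, the other retina arrays 686 to 1100, and retina lies below every other array for myelin and microglia.

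Of the 132 genes higher than in each tissue, 38 were on a list and 94 were on none. The 10 of these with the widest gap to the next tissue were Reep6, Ppef2, Tnfaip3, Drd4, Pla2r1, Adipor1, Ptp4a3, Crxos, Sprr2c-ps and Galnt4. Reep6, a protein of the endoplasmic reticulum of rods, stood at 3959, 3712, 5589 and 5601 in retina against 10.9 to 113 with a median of 50.8, a difference of 6.56 ± 0.15 (adjusted p = 1.37e-27). Ppef2, a phosphatase of photoreceptors, stood at 359, 434, 365 and 334 against -5.13 to 21.6 with a median of 8.62, a difference of 5.01 ± 0.14 (adjusted p = 7.00e-25). Drd4, the dopamine D4 receptor, which photoreceptors use to sense dopamine, stood at 1197, 1265, 1551 and 1422 against 20.5 to 88.1 with a median of 57, a difference of 4.65 ± 0.18 (adjusted p = 3.39e-21). Retina exceeded the brain regions by a wide margin for these 3 genes.

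Adipor1, an adiponectin receptor, stood at 789, 911, 829 and 784 against 28.5 to 109 with a median of 59.5, a difference of 3.82 ± 0.14 (adjusted p = 8.83e-22). Pla2r1, a receptor of secreted phospholipase, stood at 604, 769, 756 and 629.8 against -3.09 to 57.5 with a median of 12.8, a difference of 5.63 ± 0.15 (adjusted p = 7.28e-26). Tnfaip3, a ubiquitin-editing enzyme that restrains NF-kappaB signalling, stood at 401, 408, 353 and 339 against -15.8 to 26.5 with a median of 0.73, a difference of 5.11 ± 0.13 (adjusted p = 2.76e-26). No other array reached the lowest retina array for any of the 3, although Adipor1 was above the floor on every array. Ptp4a3, a tyrosine phosphatase, differed by 3.55 ± 0.11 and Galnt4, which starts O-linked glycans, by 3.10 ± 0.24. Crxos, a transcript on the strand opposite Crx, differed by 2.69 ± 0.10 at 69.4, 57.5, 89.8 and 61.2. Sprr2c-ps, a pseudogene, differed by 2.77 ± 0.11, and its probes could share targets with near copies in its family. Neurod4, a factor of amacrine and bipolar cells, stood at 504, 562, 536 and 443 against -6.15 to 212 with a median of 4.98, a difference of 5.39 ± 0.09 (adjusted p = 1.17e-31), with the highest other array in pituitary.

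The largest decreases off the lists were Apod, Ptgds, Agt, Ptprz1, Wls, Gpr37l1 and Scd1. Apod, a lipid carrier of oligodendrocytes and astrocytes, stood at 27.4, -10.7, 4.97 and -14.3 in retina against 279.6 to 2727 with a median of 700.2, a difference of -5.79 ± 0.13 (adjusted p = 8.70e-28). Ptgds, the prostaglandin D synthase of meninges and oligodendrocytes, stood at 89.4, 84.3, 149 and 141 against 124 to 8663 with a median of 4352, a difference of -5.02 ± 0.12 (adjusted p = 1.54e-27). Apod lay below every other array, and Ptgds overlapped only with pituitary. Agt (angiotensinogen), made by astrocytes, differed by -4.61 ± 0.13, Ptprz1, a receptor phosphatase of glia, by -4.40 ± 0.09 (other probe sets by -0.93 and -1.03) and Gpr37l1, a receptor of astrocytes, by -3.74 ± 0.13. Wls, which carries Wnt proteins to the surface, stood at 3.27, 13.8, 9.47 and 4.45 against 60.3 to 1422 with a median of 140.4, a difference of -3.83 ± 0.12 (adjusted p = 4.72e-24). Scd1, a fatty acid desaturase used in making myelin, stood at 83.2, 89.8, 75.3 and 87.3 against 188 to 3059.7 with a median of 1054, a difference of -3.71 ± 0.06 (adjusted p = 3.80e-31), while 1 of its other probe sets gave 0.61. Both Wls and Scd1 were lower than in each of the 21 tissues.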

How the data were processed

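The deposited values are intensities per probe set on a linear scale and were taken as already scaled between arrays. On all 150 arrays of the series, 5.97% of them are below 0. The software that made them is not given in the sources used here. RNA was extracted with TRIzol and RNeasy columns and labelled with biotin, per the labels' protocols. Precision is limited by how many arrays each tissue has.

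Of 12422 probe sets other than controls, 10833 had a single symbol in the platform's annotation. Those with several symbols (396) or none (1193) were left out. A gene kept its probe set with the highest mean of tissue means, giving 8251 genes, 8237 of them matched to RefSeq, from which symbols were updated. Values under the 20th percentile, 10.4, were raised to it and expressed as log2. A gene was tested if a tissue mean passed 5.74, the median. Models used limma 3.58.1 in R 4.3.3, with tissue as factor and Benjamini-Hochberg adjustment over 6374 genes, and were tested on simulated data.

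The comparison and the gene lists were chosen with earlier results of these data known. The text names the 20 largest differences in either direction, 10 genes off the lists with the widest margin over the next tissue, and members of lists. Alternatives varied floor, scaling, filter, tissues, unit, probe sets, RNA quality and arrays. Promoter sequences and coordinates are from RefSeq for GRCm38.p6.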

Additional observations from a re-analysis of the deposited data

Results flagged for a closer look

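Among the 219 genes named, 22 had 1 retina array far from the other 3 by Dixon's criterion on log2 values after the floor. Chance alone gives this in about 5% of groups, a share that holds only for values not raised to a floor. A gene with 3 arrays at the floor and 1 above it always met the criterion, so the 22 cannot be set against that share. In several of the 22 the odd array lay above the floor while the others lay at or near it. These were Agt at 24.0, Fabp7 at 18.8, Camk2a at 14.6 and Rdh5 at 10.6 on replicate 3, Alas2 at 27.5, Kalrn at 19.0 and Rbp4 at 15.3 on replicate 4, Apod at 27.4, Klk6 at 26.0 and Tie1 at 13.9 on replicate 1, and Ptprz1 and Wls at 13.4 and 13.8 on replicate 2. Replicate 4 was the lowest for Ctss at 47.4, Dct at 43.2, Gap43 at 74.1 and Mt3 at 364, and the highest for Syp at 561. Replicate 3 was the highest for Pgk1 at 2705 and Rgs7 at 328, and the lowest for Grik1 at 32.2. Replicate 1 was the lowest for Pclo at 215 and Slc1a2 at 93.4.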

How the results depend on the processing

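No paired analysis was possible because retina shared at most 1 number in its titles with any other tissue, a motor cortex array. With tissue means as the unit, the calls fell from 1614 to 665 (430 higher, 235 lower) and the listed genes called lower from 62 to 19. Without pituitary and choroid plexus, a setting chosen after seeing the data, the latter count was 41. The genes below each tissue were 93, and were 56 with the floor at the 40th percentile, 142 without pituitary and 223 without pituitary and choroid plexus, which also took the genes above each tissue from 132 to 207. Leaving out 1 array at a time gave 1606 to 1712 calls, 813 to 890 higher, 777 to 822 lower, 128 to 142 genes above each tissue and 88 to 105 below each. Listed genes then called higher were 70 to 73 and lower 61 to 63. Col1a1, at 0.09 and not called, turned to -1.22 with the mean of all probe sets. Of 154 named genes called, 83 kept the call in each of 79 alternatives and 71 lost it in at least 1, among them those given in the text with their values. The causes were not tested. Of 271 called genes with several tested probe sets, 134 had the same call in all. Among all 1116 genes with several tested probe sets, 17 had probe sets called in opposite directions. Signal near the floor limits the dim genes, whose differences are smaller than the true ones.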

Other observations

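The genes that set retina apart within the nervous system were in part shared with other organs of strain B6, each represented by a single array, so these levels have no replicate check. Of the 132 genes called higher than in each of the 21 neural tissues, 90 had their lowest retina array above all 10 B6 body arrays. The following were among those that did not, and they were picked with their values known. Vtn (vitronectin), an adhesion protein of plasma, had a log2 level of 10.65 in retina and 11.94 in liver, with a difference of 2.79 ± 0.09 against the neural tissues (limma adjusted p = 5.55e-24). Hmgb2, a chromatin protein of dividing cells, had 6.94 in retina and 10.75 in thymus, with a difference of 3.22 ± 0.23 (adjusted p = 1.92e-14). Gsg1, known from germ cells, had 8.42 in retina and 12.24 in testes, with a difference of 3.21 ± 0.21 (adjusted p = 2.03e-15). Hk2 had 10.30 in retina and 10.82 in brown adipose tissue. The rod genes Gnat1, at 13.38, and Sag, at 12.72, had no body array above 4.83 and 5.27.

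Among the 132 genes, the neural tissue next to retina was pituitary for 29, choroid plexus for 15, olfactory bulbs for 13, cerebellum for 11 and striatum for 9. The same count over all genes tested is not given, so this is a description and not a measure of likeness to retina. Pituitary and choroid plexus had the lowest mean correlations with retina, at 0.683 and 0.558. For the 53 of them that passed the filter only through retina, this ranks tissues that all lay below the filter on dim genes.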
